A study of Mus musculus with 2 samples.

Results

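The genes described here are 10 genes of major histocompatibility complex (MHC) class I antigen presentation: *H2-K1*, *H2-D1*, *B2m*, *Tap1*, *Tap2*, *Tapbp*, *Psmb8*, *Psmb9*, *Nlrc5* and *Erap1*. They were chosen by name from the pathway, with earlier results of these data known, and all 10 were present among the 31053 genes of both count matrices. The data were 2 droplet single-cell RNA-seq libraries of tumor-infiltrating immune cells, one from control and one from creatine-treated mice. The mice were male C57BL/6J animals of 8 to 12 weeks bearing B16-OVA tumors, a mouse melanoma line that expresses ovalbumin. Control mice received PBS, and creatine-treated mice received 10.5 mg creatine intraperitoneally each day. On day 14 the tumors of each group, 4 per library, were pooled, live CD45.2+ cells were sorted, and 10000 cells were loaded. A protocol entry of the control sample also describes creatine, but its title and treatment label give PBS and were followed. The study's text differs in places on the day and the number of mice, and the labels were followed. Each group is thus 1 library, mice cannot be told apart within it, and no difference below has a replicate check or a p-value. In place of a test, levels carry exact Poisson 95% intervals and ratios carry exact 95% intervals built on the Clopper-Pearson method. These intervals cover counting error only.

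MHC class I molecules show peptides from inside the cell to CD8 T cells. The immunoproteasome cuts proteins into peptides, the transporter associated with antigen processing carries these into the endoplasmic reticulum, and there they are trimmed and loaded onto a heavy chain paired with β2-microglobulin. Interferon-γ is known to induce most of these genes together, in part through IRF1 and the transactivator NLRC5. Nearly all nucleated cells carry class I molecules, and dendritic cells use them to prime CD8 T cells.

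After cells with more than 25% mitochondrial unique molecular identifiers (UMIs, counted molecules) were removed, 7241 control and 6229 creatine cells remained, with medians of 7688 and 8475 UMIs. Cells were assigned to 15 classes by marker genes, and a cell that met several gates was left out. Exactly 1 gate was met by 67.7% of control and 70.3% of creatine cells. In 8 classes both libraries held at least 50 cells, and these carry the comparison; the other 7 are given as values. The libraries shared 29 of the kept cell barcodes. Levels are given as CPM, UMIs per 1000000 UMIs of the class in that library. Each class's own marker list was higher in it than in any other class in both libraries, except for the CD4 Th list. That list includes genes of all T cells and was at 3875 CPM in the creatine CD4 Th cell-like cells and at 4121 CPM in the CD8 T cell-like cells.

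On the map, 7 of the members lie on chromosome 17 within the MHC region in GRCm38 (GENCODE M21 annotation). These are *Tapbp* (chr17:33915899-33929292), *H2-K1* (chr17:33996017-34000347), *Psmb9* (chr17:34181987-34187764), *Tap1* (chr17:34187553-34197225), *Psmb8* (chr17:34197721-34201454), *Tap2* (chr17:34203527-34216321) and *H2-D1* (chr17:35262730-35267499). *B2m* lies at chr2:122147686-122153083, *Nlrc5* at chr8:94434356-94527272 and *Erap1* at chr13:74639568-74693201. Promoter windows of 250 bases before to 50 bases after the start site were taken from RefSeq (GRCm38.p6) for 8 members. *Tap2* and *Nlrc5* had no entry. The windows of both heavy chains and of their shared light chain are printed because together they encode the class I molecule. Capitals mark GGGATTCCC (a κB-type element) and GTTTCNNTT (part of an interferon-stimulated response element) in the heavy chains, and GAAANNGAA (a spaced pair as bound by interferon regulatory factors) in *B2m*.
H2-K1 (chr17:34000298-34000597, minus strand): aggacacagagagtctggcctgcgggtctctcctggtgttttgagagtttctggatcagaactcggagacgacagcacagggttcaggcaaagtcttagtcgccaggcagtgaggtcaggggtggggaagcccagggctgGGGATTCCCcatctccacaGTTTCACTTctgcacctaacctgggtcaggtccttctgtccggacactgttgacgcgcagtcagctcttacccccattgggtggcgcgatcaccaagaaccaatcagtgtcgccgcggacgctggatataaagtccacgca
H2-D1 (chr17:35262844-35263143, plus strand): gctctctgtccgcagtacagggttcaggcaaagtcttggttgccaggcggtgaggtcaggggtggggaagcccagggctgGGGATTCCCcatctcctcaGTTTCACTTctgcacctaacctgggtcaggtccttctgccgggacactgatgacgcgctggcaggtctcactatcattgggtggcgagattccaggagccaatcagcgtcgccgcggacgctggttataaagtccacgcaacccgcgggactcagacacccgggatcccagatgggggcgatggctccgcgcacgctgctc
B2m (chr2:122147437-122147736, plus strand): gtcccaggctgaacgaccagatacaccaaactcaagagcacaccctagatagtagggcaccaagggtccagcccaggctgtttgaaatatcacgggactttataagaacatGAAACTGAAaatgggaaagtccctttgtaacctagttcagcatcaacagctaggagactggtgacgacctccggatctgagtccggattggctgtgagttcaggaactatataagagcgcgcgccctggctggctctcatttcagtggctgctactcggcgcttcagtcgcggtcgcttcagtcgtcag
In *H2-K1* these elements lie at −110 to −102 and −91 to −83 from the start site of the window shown. From another *H2-K1* start site they lie at −124 to −116 and −105 to −97. In *H2-D1* they lie at −170 to −162 and −151 to −143. In *B2m* the pair lies at −139 to −131. Of 32851 promoter windows of this length, searched on both strands, 0.353% hold GGGATTCCC, 5.77% hold GTTTCNNTT and 8.56% hold GAAANNGAA. The κB-type and response-element patterns were added, and GAAANNGAA was shortened by 1 base, after promoters of the members had been read, so their presence here is not a finding. *Erap1* holds GAAANNGAA on the opposite strand at −9 to −1 and, overlapping that match, at −3 to 5. CCAAT, found in 37.4% of windows, occurs in the windows of 6 members. TTCNNNGAA (a gamma-activated site pattern), found in 8.30% of windows, occurs in *Psmb8* at −97 to −89 and in no other member's window. CCAAT and TTCNNNGAA were settled before the promoters were read. The RefSeq start sites of *Tap1* and *Psmb9* face away from each other with 225 bases between them, shown in capitals in the window of *Tap1*. The GENCODE spans of these genes given above overlap, so the gap holds for the RefSeq start sites only.
Tap1 and Psmb9 (chr17:34187306-34187605, plus strand): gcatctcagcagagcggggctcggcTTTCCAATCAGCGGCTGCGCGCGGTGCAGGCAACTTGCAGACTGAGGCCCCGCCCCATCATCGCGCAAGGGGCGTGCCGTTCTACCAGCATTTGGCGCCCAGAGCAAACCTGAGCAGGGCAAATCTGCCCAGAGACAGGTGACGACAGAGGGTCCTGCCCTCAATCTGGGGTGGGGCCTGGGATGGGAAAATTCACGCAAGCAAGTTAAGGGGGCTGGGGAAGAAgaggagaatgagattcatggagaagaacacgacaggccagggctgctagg
A match to letters is a description of the window and not evidence of binding.

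Across all kept cells, creatine levels exceeded control levels for every member. Their median log2 ratio was 0.17, against 0.01 for all 13482 genes with at least 50 UMIs. The ratios were small, from 0.04 for *Psmb8* to 0.28 for *Nlrc5*, and 0 of 10 reached 1.5-fold, which 5.13% of all genes did upward and 6.07% downward. The mix of cells differs between libraries, so the classes were read one by one. Of the 80 values from 10 members in 8 classes, 70 were above 0, 50 had an interval wholly above 0 and 3 had an interval wholly below 0. Of all genes in these classes, between 46.1% and 58.7% were above 0, between 8.26% and 26.8% had an interval wholly above 0 and between 6.58% and 16.0% one wholly below 0. The interval shares are not like for like, because intervals narrow as counts rise. All genes needed only 50 UMIs, while *B2m* had 94600 control UMIs in CD8 T cell-like cells. Only 3 of the 80 were at least 1.5-fold higher and 0 were at least 1.5-fold lower. Of all genes in these classes, between 2.53% and 10.5% were past that fold upward and between 3.79% and 9.16% downward.

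**Figure D1:**
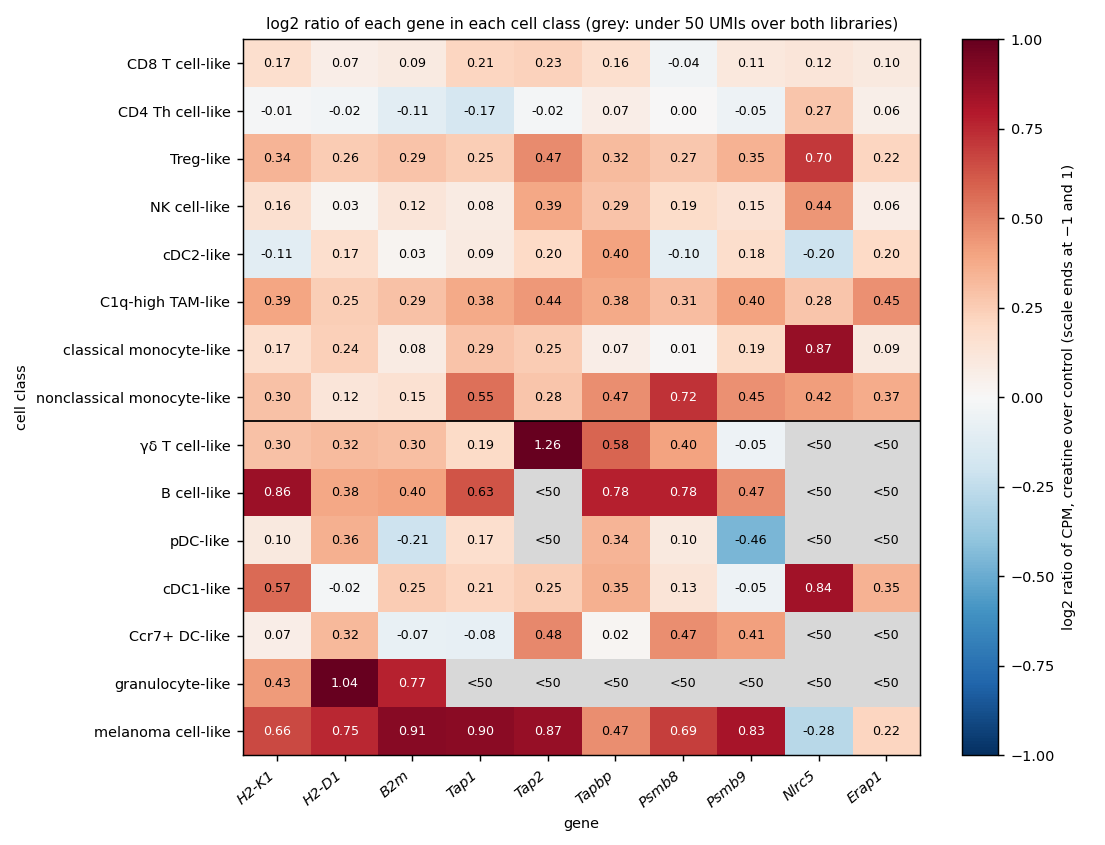
log2 ratio of CPM (creatine over control) of each member (columns) in each of 15 cell classes (rows), with the 8 classes of at least 50 cells per library above the line. Most cells of the upper block are above 0, the CD4 Th cell-like row lies near 0, and grey marks values under 50 UMIs.

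Control levels set the classes in a different order for each gene. *H2-K1* was highest in CD4 Th cell-like (3263 CPM) and Ccr7+ DC-like cells (3051 CPM), whose intervals overlapped, and lowest in melanoma cell-like cells (643 CPM). The next lowest, cDC1-like cells at 920 CPM, did not overlap with them. *H2-D1* was highest in nonclassical monocyte-like cells (3013 CPM) and again lowest in melanoma cell-like cells (700.3 CPM). *Tap1* ran from 407 CPM in cDC1-like to 86.3 CPM in melanoma cell-like cells, and *Tap2* from 205 to 49.9 CPM in the same classes, with neighbors in the order overlapping almost throughout. *Tapbp* was highest in Ccr7+ DC-like cells at 437 CPM. *Nlrc5* was between 16.1 and 78.5 CPM, and *Erap1*, where detected, between 25.9 and 54.7 CPM. Of the markers of cells outside the sort, the fibroblast list was at no more than 2.54 CPM in any class and the erythroid list at no more than 4.91 CPM. The endothelial list of 3 genes was at 246 CPM in control and 167 CPM in creatine pDC-like cells and at no more than 98.1 CPM elsewhere.

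C1q-high TAM-like cells, macrophages marked by complement C1q genes, showed the most even difference. All 10 members were higher in creatine, each with an interval above 0, and their log2 ratios lay between 0.25 and 0.45. *H2-K1*, the heavy chain of H-2K, was at 2001 CPM in control and 2630 CPM in creatine. That is a log2 ratio of 0.39 (0.37 to 0.42). *B2m*, the light chain of every class I molecule, went from 3875 to 4737 CPM, a log2 ratio of 0.29 (0.27 to 0.31). Both subunits of the peptide transporter were higher by similar amounts. *Tap1* had 230 CPM in control and 299 CPM in creatine (0.38, 0.30 to 0.46), and *Tap2* 83.8 and 114 CPM (0.44, 0.31 to 0.57). *Tapbp* (tapasin, which bridges the transporter and the class I molecule) was at 334 and 433 CPM. The immunoproteasome subunit *Psmb9* was at 259 and 343 CPM (0.40, 0.33 to 0.48), and *Erap1*, the peptide-trimming aminopeptidase, at 44.8 and 61.3 CPM (0.45, 0.27 to 0.63). The median of the 10 was 0.38, while the median of all 10246 genes in this class was −0.02. All 10 lay above the 75th percentile of those genes and 7 lay above the 90th. In this class 0 members reached 1.5-fold in either direction, which 2.53% of genes did upward and 4.67% downward. Cell numbers and depth also differed in this class, with 797 control and 289 creatine cells at medians of 15467 and 24496 UMIs. A further 289 control and 94 creatine cells met this gate but also another, and were left out. The CD8 T cell marker list, whose genes should be absent from macrophages, was at 111 and 58.2 CPM, with 0 of 6 markers higher in creatine and 0 at 0 UMIs. Its part in the result was not tested. After each cell was thinned to 2000 UMIs (38 control and 13 creatine cells were shallower and left out), *Tap1* was seen in 36.5% of control cells (33.1 to 40.03) and 51.4% of creatine cells (45.4 to 57.5); unthinned shares were 84.6% and 92.4%. The median *H2-K1* count per thinned cell was 4 in control and 5 in creatine. With each cell at equal weight the log2 ratio of *Nlrc5* was 0.02 in place of 0.28 over summed counts, and after thinning that of *Erap1* was 1.01 in place of 0.45.

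**Figure D2:**
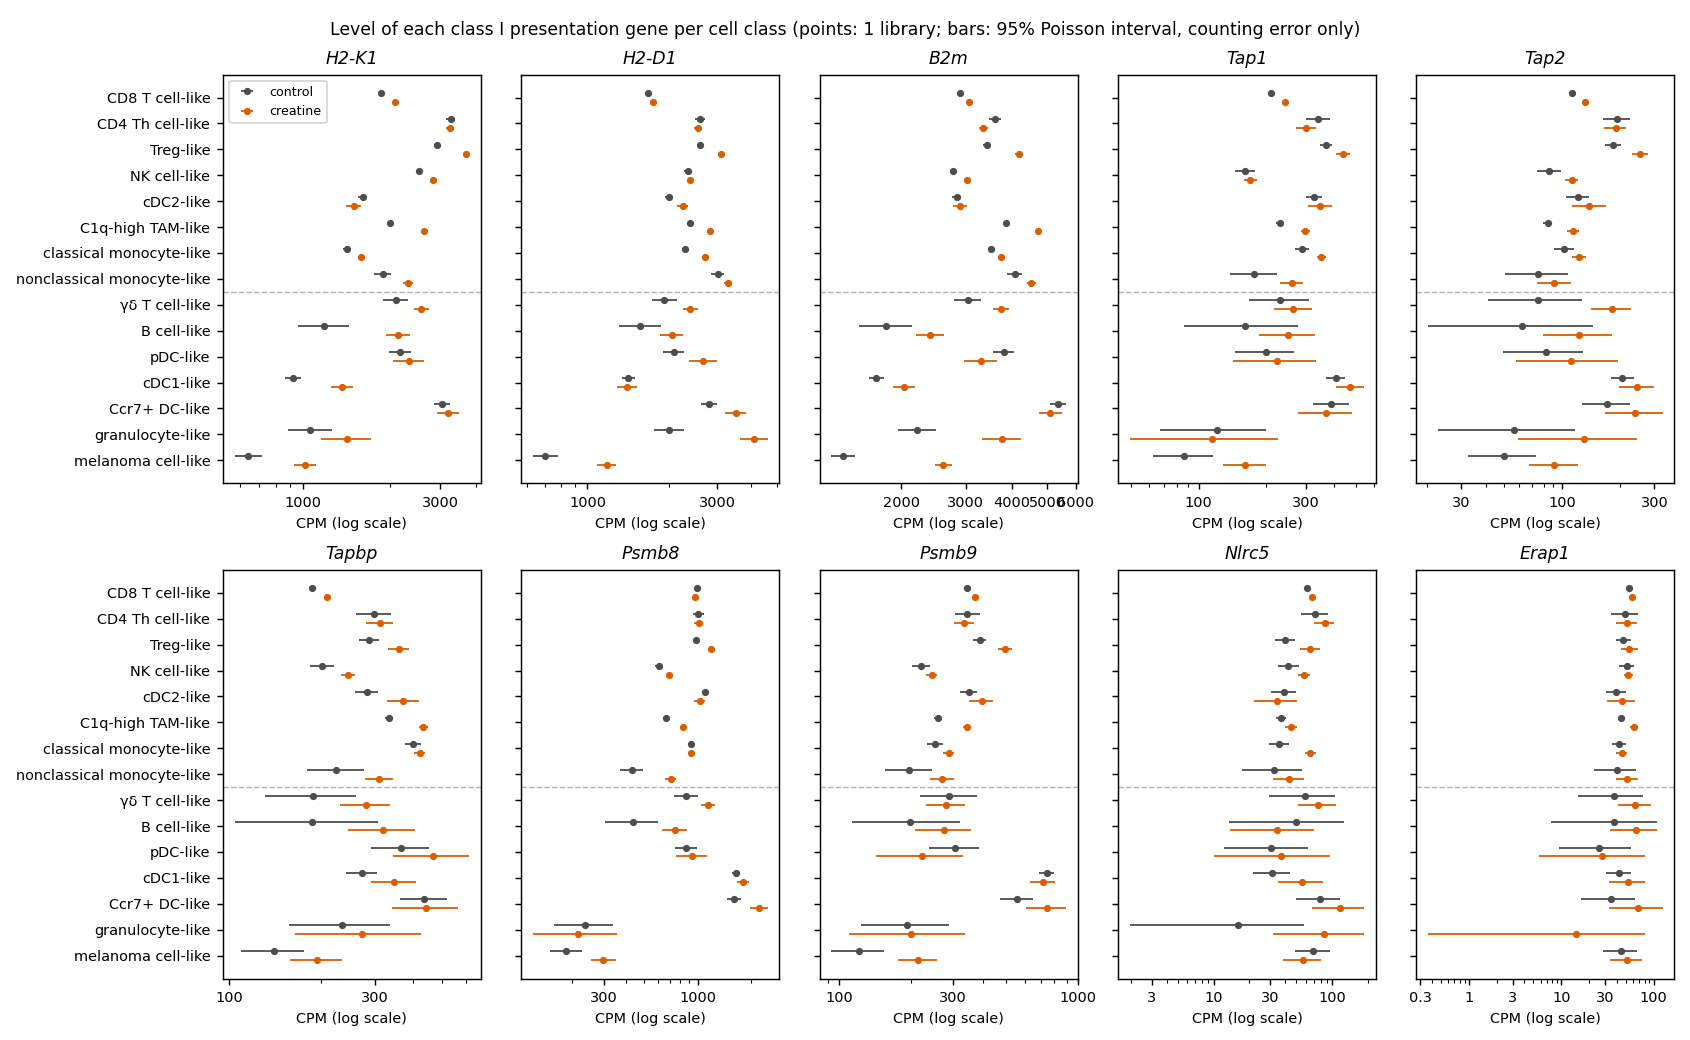
CPM (log axis) of each member in each of 15 classes, control in grey and creatine in orange; points are 1 library, bars are 95% Poisson intervals of counting error, and classes below the dashed line have under 50 cells in a library. Creatine points lie to the right of control points for all 10 members in C1q-high TAM-like cells.

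Monocytes were read by subtype. In classical monocyte-like cells (317 control, 498 creatine) all 10 ratios were above 0 and 7 intervals were wholly above 0, with a median of 0.18 against 0.01 for all genes. *Nlrc5*, the transactivator of class I genes, had the widest difference, from 35.9 to 65.5 CPM. Its log2 ratio of 0.87 (0.54 to 1.21) was the single value past 1.5-fold in this class, where 7.8% of genes were past it upward and 8.55% downward. *H2-D1* went from 2294 to 2705 CPM (0.24, 0.19 to 0.28) and *Tap1* from 288 to 351 CPM (0.29, 0.17 to 0.41). *Psmb8*, *Tapbp* and *Erap1* had intervals that included 0. The C1q-high macrophage list was at 4047 and 2846 CPM in these cells (0 of 7 genes higher in creatine), the CD8 T cell list at 171 and 68.5 CPM (0 of 6) and the dividing-cell list at 131 and 28.6 CPM (0 of 8); their part was not tested. Of the classical monocyte-like cells, 66.2% in control and 55.6% in creatine fell in the Seurat cluster of that name. A further 265 control and 236 creatine cells met the classical gate but also another, and were left out. In nonclassical monocyte-like cells (69 control, 130 creatine) the median was 0.40 and all 10 ratios were above 0, 7 with intervals above 0. Another 51 control and 152 creatine cells met this gate but also another, and were left out. The median was 0.17 after thinning to 2000 UMIs. *Psmb8* was at 429 CPM in control and 709 CPM in creatine, a log2 ratio of 0.72 (0.48 to 0.97), in a class where 10.5% of genes were past 1.5-fold upward and 6.91% downward. *Tap1* was at 177 and 260 CPM (0.55, 0.17 to 0.95). The CD8 T cell marker list was higher in the creatine nonclassical cells, at 177 and 395 CPM and in 6 of 6 genes. The dividing-cell list was at 67.3 and 327 CPM there (8 of 8 genes higher in creatine). Cells with 2 or more dividing-cell genes made up 4.35% and 2.31%. The part of these lists in the values was not tested.

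In Treg-like cells (294 control, 192 creatine) all 10 ratios were above 0 and 9 intervals were above 0, with a median of 0.30 against 0.06 for all genes. *H2-K1* was at 2922 and 3693 CPM (0.34, 0.29 to 0.39), *B2m* at 3423 and 4182 CPM (0.29, 0.24 to 0.33), and *Tap2* at 183 and 254 CPM (0.47, 0.28 to 0.66). *Nlrc5* was at 40.2 and 65.6 CPM, and its log2 ratio of 0.70 (0.30 to 1.11) passed 1.5-fold, as 6.98% of genes did upward and 4.42% downward. Dividing cells made up 36.7% of control and 27.6% of creatine Treg-like cells, and without them the median of the members was 0.12. NK cell markers were at 45.4 CPM in control and 389 CPM in creatine Treg-like cells, higher for 8 of 8 genes. The myeloid lineage list was at 280 and 608 CPM (3 of 4 genes higher in creatine). The Treg list itself was at 4846 and 5688 CPM (0.23, 7 of 8 genes higher). The leukocyte gene *Ptprc* was at 865 and 1190 CPM (0.46). The part of these differences in the members' values was not tested.

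In CD8 T cell-like cells, the largest class (2388 control, 1948 creatine), differences were small but tightly counted. Of the 10 members, 9 were higher, with a median of 0.12 against 0.04 for all genes; 0 reached 1.5-fold, where 4.08% of genes did upward and 4.43% downward. *Tap1* went from 209 to 242 CPM (0.21, 0.17 to 0.26), *Tap2* from 112 to 132 CPM (0.23, 0.17 to 0.30) and *H2-K1* from 1860 to 2086 CPM (0.17, 0.15 to 0.18). *Psmb8*, which encodes the chymotrypsin-like immunoproteasome subunit, was lower, at 998 and 972 CPM (−0.04, −0.06 to −0.01). The class's own marker list rose by more than the members' median, from 5036 to 5816 CPM (0.21, 6 of 6 genes higher). *Ptprc* was at 777 and 897 CPM (0.21). In NK cell-like cells (524 control, 872 creatine) all 10 were above 0 and 6 had intervals above 0, with a median of 0.15 against 0.05; 0 passed 1.5-fold, as 4.9% of genes did upward and 3.79% downward. *Tap2* was at 85.2 and 112 CPM (0.39, 0.16 to 0.63) and *Nlrc5* at 42.8 and 58.2 CPM (0.44, 0.11 to 0.78), while *H2-D1* was at 2336 and 2382 CPM (0.03, −0.02 to 0.07). The NK cell list was at 9721 and 11991 CPM there (0.30, 4 of 8 genes higher). In C1q-high TAM, classical monocyte and nonclassical monocyte-like cells the own lists had log2 ratios of 0.11, 0.24 and −0.19. In cDC2 and CD4 Th cell-like cells they were at 0.09 and −0.01. The part of these lists was not tested. CD4 Th cell-like cells (165 control, 200 creatine) did not share the shift. Their median was −0.02 against 0.02 for all genes, 0 members had an interval above 0, and *B2m* was lower, at 3607 and 3354 CPM (−0.11, −0.17 to −0.04). In this class 0 members were past 1.5-fold, beside 6.31% of genes upward and 5.05% downward. Of the CD4 Th cell-like cells, 60.6% in control and 70.5% in creatine fell in the Seurat cluster of that name.

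Dendritic cells gave mixed values. In cDC2-like cells (118 control, 57 creatine) 7 of 10 ratios were above 0, but only *H2-D1*, at 1990 and 2241 CPM (0.17, 0.09 to 0.26), and *Tapbp*, at 282 and 372 CPM (0.40, 0.18 to 0.62), had intervals above 0. *H2-K1* was lower, at 1612 and 1496 CPM (−0.11, −0.21 to −0.01). The median was 0.13 against 0.04, and it was −0.05 when each cell had equal weight; 0 passed 1.5-fold, as 9.4% of genes did upward and 9.16% downward. The classical monocyte marker list was at 747 CPM in control and 1542 CPM in creatine cDC2-like cells and the dividing-cell list at 964 and 150 CPM; their part was not tested. cDC1-like cells, the cross-presenting dendritic cells, numbered 51 and 20. They held the highest control level of *Psmb8* (1645 CPM) and *Psmb9* (741 CPM) of the 15 classes, although the *Psmb8* interval overlapped that of Ccr7+ DC-like cells. *H2-K1* was at 920 and 1364 CPM there (0.57, 0.41 to 0.72), while *H2-D1* was at 1416 and 1397 CPM (−0.02, −0.16 to 0.12). This contrast was not seen after thinning to 2000 UMIs per cell (51 control and 19 creatine cells). Mean thinned counts per cell were 2.06 and 2.37 for *H2-K1* and 2.96 and 3.42 for *H2-D1*. Those of *B2m* were 3.33 and 3.26. Over summed counts *Nlrc5*, with 32 and 22 UMIs, was the single member past 1.5-fold, beside 8.47% of genes upward and 8.71% downward. The myeloid lineage list was at 887 and 2161 CPM in these cells (4 of 4 genes higher in creatine), the NK cell list at 55.6 and 401 CPM (6 of 8) and the dividing-cell list at 1554 and 799 CPM (0 of 8); their part was not tested. Ccr7+ DC-like cells (33 and 12) had the highest control *B2m* level, 5362 CPM, and 5100 CPM in creatine; *Psmb8* was at 1597 and 2210 CPM (0.47, 0.26 to 0.68). Of the 8 members with at least 50 UMIs 0 were past 1.5-fold, beside 12.6% of genes upward and 12.2% downward. The dividing-cell list was at 37.5 and 1034 CPM in these cells, higher for 8 of 8 genes, and the CD8 T cell list at 85.3 and 252 CPM, higher for 4 of 6; their part was not tested.

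**Figure D3:**
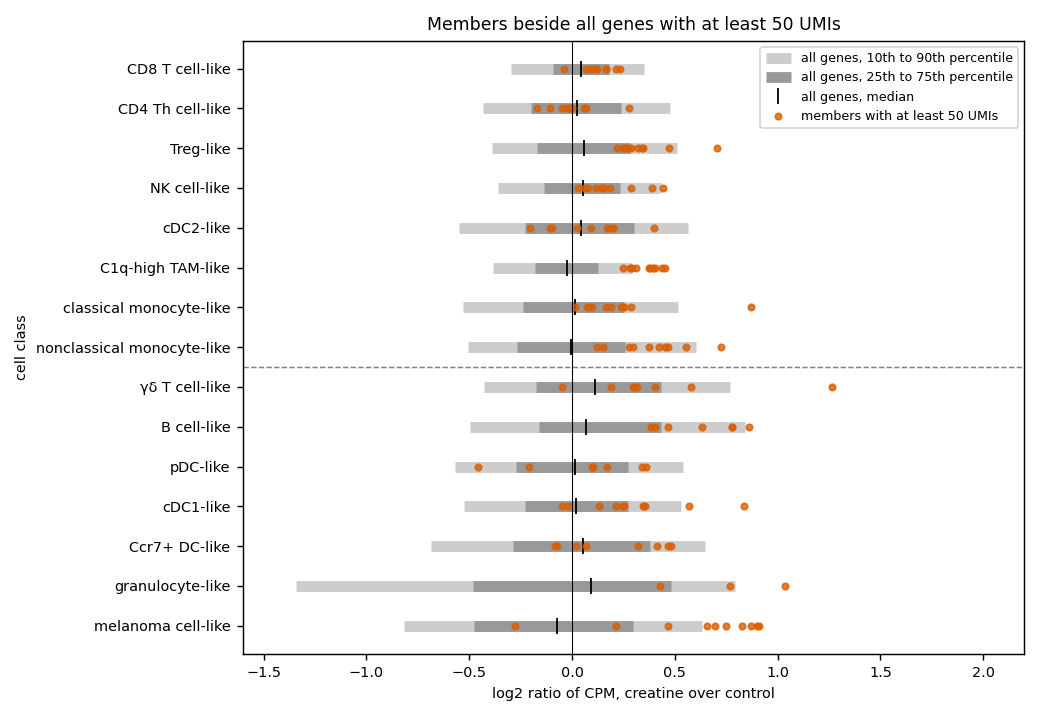
log2 ratios of the members (orange points) beside all genes with at least 50 UMIs in each class (light bar 10th to 90th percentile, dark bar 25th to 75th, tick the median). In C1q-high TAM-like cells all 10 members lie to the right of the dark bar.

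Melanoma cell-like cells, defined by *Dct*, *Pmel* and other pigment genes and carried through the CD45.2 sort, numbered 13 in control and 10 in creatine. In these cells 7 of 10 members were at least 1.5-fold higher in creatine, where 11.7% of genes were past that fold upward and 18.9% downward. *B2m* was at 1387 CPM in control and 2607 CPM in creatine (0.91, 0.78 to 1.04), *Tap1* at 86.3 and 161 CPM (0.90, 0.36 to 1.46) and *H2-D1* at 700.3 and 1178 CPM (0.75, 0.56 to 0.94). *Nlrc5* (−0.28) and *Erap1* (0.22) had intervals that included 0. The summed level of *H2-K1*, *H2-D1* and *B2m* per cell ran from 1457 through a median of 2408 to 6115 CPM in control and from 1587 through 4583 to 14648 CPM in creatine, so the cells of the 2 libraries overlap. The median mitochondrial share was 18.7% in control and 8.22% in creatine cells, and with cells of at most 10% the median log2 ratio of the members was 0.21 in place of 0.72, from 2 and 6 cells. Macrophage markers were at 577 and 1048 CPM. In creatine 1 cell held over 2 UMIs of the leukocyte gene *Ptprc*, and without it the median was 0.66.

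The remaining classes held few cells. In granulocyte-like cells (43 and 23) *H2-D1* was at 2001 and 4100 CPM (1.04, 0.78 to 1.29) and *B2m* at 2210 and 3770 CPM (0.77, 0.52 to 1.02), and 2 of the 3 members with at least 50 UMIs passed 1.5-fold upward beside 19.5% of genes, and 0 downward beside 21.9%. *Erap1* had 0 UMIs there in control and 1 in creatine. In B cell-like cells (32 and 44) *H2-K1* was at 1180 and 2140 CPM (0.86, 0.54 to 1.19), and 4 of 7 passed 1.5-fold upward beside 17.6% of genes, and 0 downward beside 7.39%. There the CD8 T cell list was at 845 and 201 CPM (0 of 6 genes higher in creatine) and the myeloid lineage list at 398 and 2380 CPM (4 of 4 higher), and their part was not tested. In γδ T cell-like cells (29 and 69) *Tap2*, with 14 and 74 UMIs, was the single member of 8 past it upward, beside 17.2% of genes, and 0 were downward beside 6.31%. The dividing-cell list there was at 493 and 75.6 CPM (0 of 8 genes higher in creatine). The γδ T cell list was at 3646 and 6213 CPM (8 of 8 higher) and the NK cell list at 869 and 427 CPM (2 of 8). Of the gated cells, 13.8% in control and 55.1% in creatine fell in the Seurat cluster named γδ T cell-like. The part of these differences was not tested. In pDC-like cells (32 and 12) *B2m* was lower, at 3810 and 3299 CPM (−0.21, −0.39 to −0.03), and *H2-D1* higher, at 2080 and 2667 CPM (0.36, 0.14 to 0.57). The median of the members there was 0.14, and 0 of 7 passed it, beside 8.28% upward and 9.73% downward.

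The immunoproteasome replaces 3 catalytic subunits of the standard proteasome: *Psmb8* stands in for *Psmb5*, *Psmb9* for *Psmb6* and *Psmb10* for *Psmb7*. The share of *Psmb9* UMIs in its pair was 51.3% (48.7 to 54.0) in control and 62.7% (60.7 to 64.7) in creatine classical monocyte-like cells. *Psmb6* itself was lower there, at 240 and 172 CPM. The share was 57.9% and 62.1% in CD8 T cell-like cells, 65.6% and 71.3% in Treg-like cells, and 40.4% and 43.3% in C1q-high TAM-like cells. In NK cell-like cells it was 61.3% and 59.3%, with overlapping intervals. *Psmb6* was also lower in CD8 T cell-like cells, with a log2 ratio of −0.14 beside 0.11 for *Psmb9*. In Treg-like cells *Psmb6* was at −0.03 and *Psmb9* at 0.35. The *Psmb8* share was 80.5% and 81.8% in C1q-high TAM-like cells and 83.2% and 82.0% in classical monocyte-like cells, with overlapping intervals in both. In nonclassical monocyte-like cells it was 70.5% and 77.6%, while that of *Psmb9* was 60.3% and 62.8%, both with overlapping intervals. The *Psmb10* share was 64.3% and 69.6% in C1q-high TAM-like cells, 61.8% and 68.8% in Treg-like cells, and 66.2% and 74.4% in CD4 Th cell-like cells. In NK cell-like cells it was 76.2% and 73.2%. The *Psmb10* intervals of the CD4 Th and of the NK cell-like cells overlapped.

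**Figure D4:**
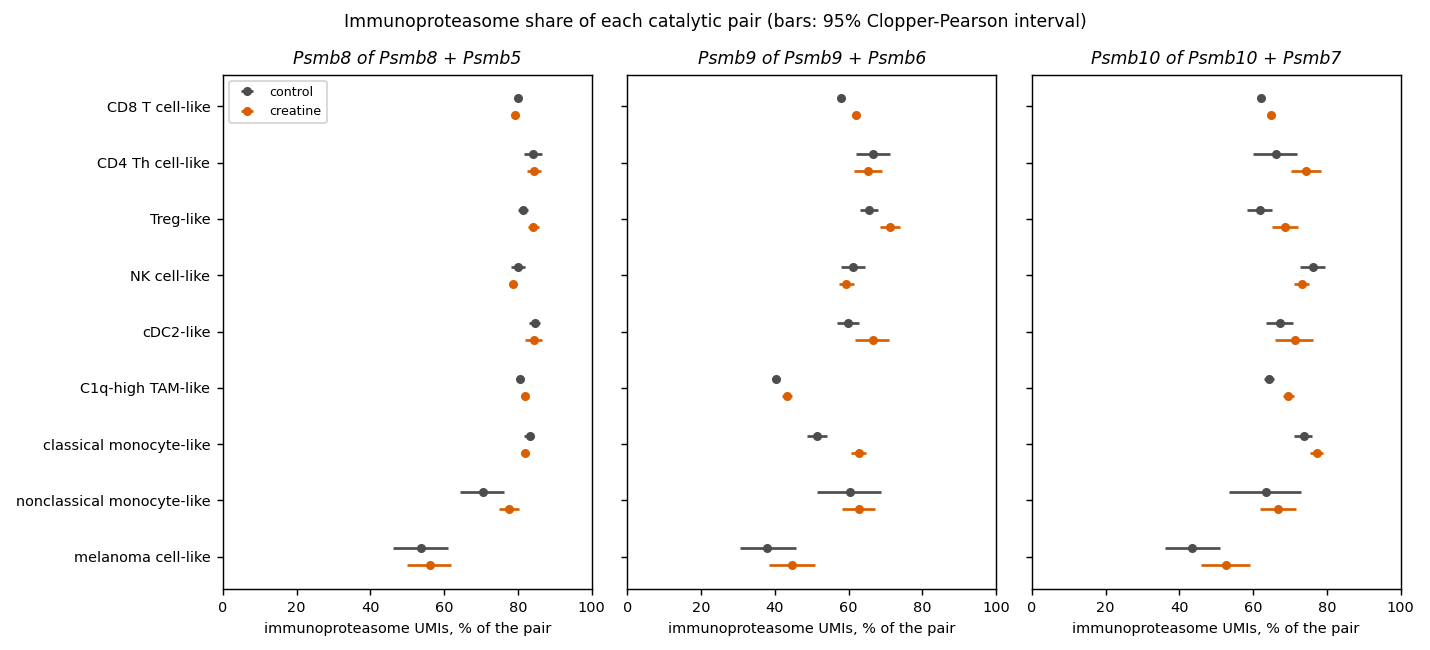
Share of immunoproteasome UMIs in each catalytic pair (percent, x axis) per class, control in grey and creatine in orange, bars 95% Clopper-Pearson intervals. In classical monocyte-like cells the *Psmb9* share is 51.3% in control and 62.7% in creatine.

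A wider list of 40 class I pathway genes, 39 of them in the files, was grouped by role. Of 9 regulators, 3 were at least 1.5-fold higher and 0 lower in C1q-high TAM-like cells, beside 2.53% of genes upward and 4.67% downward. *Socs1*, an interferon-induced inhibitor of cytokine signaling, was at 45.6 and 120 CPM there (a log2 ratio of 1.40, or 2.64-fold) and at 107 and 199 CPM in classical monocyte-like cells (0.90, 0.71 to 1.09). The values of *Irf1*, an interferon-induced transcription factor, were singled out after they were seen. In C1q-high TAM-like cells *Irf1* was at 137 and 256 CPM (0.90, 0.81 to 1.00). In CD4 Th cell-like cells *Irf1* was at 154 and 157 CPM (0.02, −0.31 to 0.36). Values of *Irf1* in the remaining larger classes are not given. Whether *Irf1* follows the members over the classes therefore cannot be read from these values. In pDC-like cells *Irf1* was at least 1.5-fold lower, while the members' median was 0.14. It was the lowest of 5 regulators with at least 50 UMIs in γδ T cell-like cells, where all 5 were above 0. In Ccr7+ DC-like cells it was the higher of 2. *Ifngr1*, a chain of the interferon-γ receptor, was lower in C1q-high TAM-like cells, at 137 and 120 CPM (−0.19, −0.31 to −0.07). In cDC1-like cells 5 of 7 regulators with at least 50 UMIs were at least 1.5-fold higher, beside 8.47% of genes. The counts were 3 of 7 in cDC2-like (9.4% of genes) and 3 of 8 in classical monocyte-like cells (7.8%). They were 0 of 6 in CD4 Th (6.31%) and 0 of 8 in NK cell-like cells (4.9%). In CD8 T cell-like cells 1 of 9 passed (4.08%), in Treg-like cells 1 of 7 (6.98%) and in nonclassical monocyte-like cells 2 of 6 (10.5%). In these classes 0 were lower, beside 3.79% to 9.16% of genes.

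Of the 7 loading chaperones, 7 were above 0 in CD8 T, NK and C1q-high TAM-like cells, beside 58.7%, 57.3% and 46.1% of all genes. In CD4 Th, cDC2 and classical monocyte-like cells 4 of 7 were above 0, beside 52.8%, 54.5% and 51.7%. In Treg-like cells it was 5 of 7 beside 56.7%, and in nonclassical monocyte-like cells 6 of 7 beside 49.8%. In the smaller cDC1-like class 3 of 7 were above 0, beside 52.7%. *Tapbpl*, a tapasin-related peptide editor, was at 38.3 and 63.8 CPM in C1q-high TAM-like cells (0.73, 0.55 to 0.92), and *Calr*, calreticulin, at 248 and 407 CPM in NK cell-like cells (0.72, 0.59 to 0.85) but at 593 and 518 CPM in classical monocyte-like cells (−0.19, −0.28 to −0.10). *Psme2*, a proteasome activator subunit, was at 310 and 425 CPM in C1q-high TAM-like cells (0.46, 0.39 to 0.52). Of the other class I chains, *H2-T23*, which encodes Qa-1, was at 234 and 286 CPM in CD8 T cell-like cells (0.29, 0.25 to 0.34). *H2-Q4* was lower in NK cell-like cells, at 207 and 147 CPM (−0.49, −0.66 to −0.33). In classical monocyte-like cells the cytosolic aminopeptidase *Npepps* was at 63.9 and 39.5 CPM (−0.69, −0.99 to −0.39). Class I heavy chains resemble each other: of 50-base windows in the last 500 bases of their transcripts, 9.60% of *H2-K1* and 8.92% of *H2-D1* windows also occur in another gene, so reads may be divided between them or lost.

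The rest of the list was less uniform. Of the proteasome activators, *Psme1* was lower in CD8 T cell-like (−0.05, −0.07 to −0.02) and classical monocyte-like cells (−0.17, −0.25 to −0.09), and higher in C1q-high TAM-like (0.22, 0.16 to 0.27) and NK cell-like cells (0.10, 0.01 to 0.19). *Pomp*, the proteasome assembly factor, had log2 ratios of 0.05, 0.31 and 0.10 in CD8 T, NK and classical monocyte-like cells. Of the standard catalytic subunits, *Psmb7* was lower in CD8 T cell-like cells (−0.16, −0.22 to −0.10) and higher in NK cell-like cells (0.51, 0.25 to 0.78), where *Psmb6* was at 0.26. *Psmb6* was at 0.23 and *Psmb7* at 0.07 in C1q-high TAM-like cells, and *Psmb5* at 0.03 and 0.13 in CD8 T and classical monocyte-like cells. Of the chaperones, the lowest log2 ratios were 0.07 for *Canx* in CD8 T, 0.06 for *Tapbpl* in NK and 0.04 for *Ganab* in C1q-high TAM-like cells. *Uggt1* had the highest in classical monocyte-like cells, 0.39 (0.08 to 0.70).

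Of 11 class I-like chains in the files, 3 of 10 with at least 50 UMIs were at least 1.5-fold higher in C1q-high TAM-like cells, beside 2.53% of genes upward. They included *H2-Q10* with 37 and 32 UMIs (0.69, −0.04 to 1.41), while *H2-Q4* was at −0.13 (−0.28 to 0.02). In nonclassical monocyte-like cells 5 of 7 were past 1.5-fold upward and 1 downward, beside 10.5% and 6.91% of genes. The cDC2-like cells went the other way, with 1 of 7 above 0 and a median of −0.43. There 0 were past 1.5-fold upward and 2 downward, beside 9.4% and 9.16% of genes. In classical monocyte-like cells *H2-T24* was higher (0.79, 0.25 to 1.36) and *H2-Q6* lower (−0.77, −1.22 to −0.33). *Fcgrt*, the neonatal Fc receptor, was lower in CD8 T cell-like cells at 3.73 and 2.28 CPM, and *Mr1* was at 0.22 in NK cell-like cells with an interval that included 0. Among regulators the lowest were *Ifngr2* in CD8 T (−0.49, −1.27 to 0.26), *Rfxank* in NK (−0.30, −1.08 to 0.52) and *Rfxap* in classical monocyte-like cells (−0.12, −0.50 to 0.27); *Socs1* was at 0.38 (0.14 to 0.63) in NK cell-like cells. Of the trimming peptidases, *Tpp2* was at 0.20 (0.12 to 0.27) in CD8 T, 0.12 in C1q-high TAM and 0.45 (0.18 to 0.72) in classical monocyte-like cells. *Npepps* was at −0.21 (−0.38 to −0.04) in C1q-high TAM and 0.44 (−0.01 to 0.92) in NK cell-like cells, and *Lnpep* at 0.02 and −0.09 in CD8 T and NK cell-like cells.

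**Figure D5:**
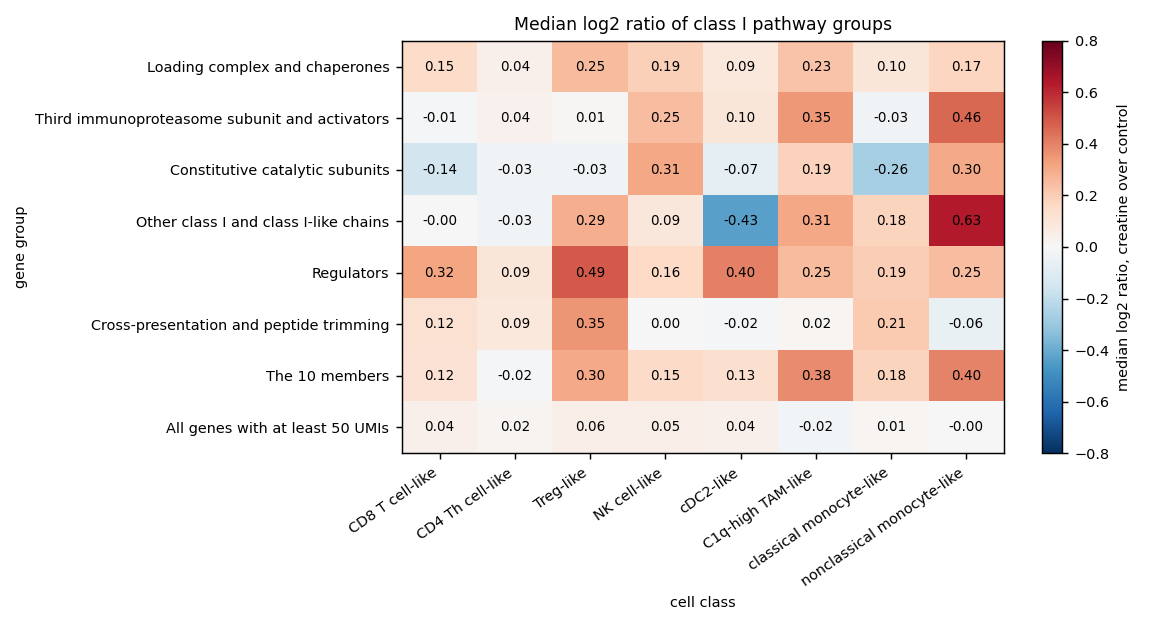
Median log2 ratio (creatine over control) of 6 role groups of the wider class I pathway, of the 10 members and of all genes with at least 50 UMIs in the 8 larger classes. The members' median is 0.38 in C1q-high TAM-like cells and −0.02 in CD4 Th cell-like cells.

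The genes whose levels most resembled the members' mean over the 30 class-by-library sums were, among 2368 genes, *Psme2* (Pearson's r = 0.88), *Psme1* (0.78), *Tapbpl* (0.77), *Traf1* (0.77) and *Socs1* (0.74). Sums of 1 library share its depth, and over the 16 sums of the larger classes the values were 0.84, 0.46, 0.47, 0.30 and 0.61.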

How the data were processed

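In all, 2 droplet single-cell libraries were measured. Per the labels and the authors' methods, reads were processed by the authors with Cell Ranger 3.0.2 against mm10, and the deposited matrices hold raw UMI counts per gene and cell. One library per group precludes a replicate test. Depth was 79319769 UMIs in control and 72091124 UMIs in creatine kept cells.

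Cells with over 25% mitochondrial UMIs were left out. Marker lists were fixed at the outset; the number of markers each gate needed was set after the matrices had been seen. The members and lists were chosen with earlier results of these data known. Counts were summed per class and library and expressed as CPM (counts scaled to a common total per library and class). Ratios are log2 creatine over control. A 1.5-fold difference was counted among genes with at least 50 UMIs over both libraries. All members were named in every class; from the wider list, per role, the genes with the largest and smallest ratio in the 4 classes with most UMIs were named (1 gene the rule would name is not reported here), and the like-patterned genes were the 5 with the highest r of log2(CPM + 1). Scrublet's own threshold marked 13 control and 20 creatine cells, too few to rely on, so an alternative left out the 6% of cells with the highest scores. In all, 9 alternatives were run. Clusters came from Seurat 5.3.0 (2000 variable genes, 30 components, resolution 0.8), TMM factors from edgeR 4.0.16, and other values from Python 3.11.15 with scipy 1.17.1. The intervals were checked on simulated Poisson counts. Those hold counting error only, so the check says nothing about spread between cells or mice. GRCm38 and mm10 share coordinates.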

Additional observations from a re-analysis of the deposited data

How the results depend on the processing

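No paired analysis was possible because each group is 1 library, and for the same reason no replicate could be left out. Over the 9 alternatives the members' median stayed above 0 in 6 of the 8 larger classes. In cDC2-like cells it was above 0 in 8 of 9, and in CD4 Th cell-like cells, whose median was −0.02, in 3 of 9. In C1q-high TAM-like cells it ranged from 0.30 to 0.40, and all 10 members were above 0 under each alternative. Single values moved more. After thinning, 35 of 80 left their reported interval and 67 kept their sign. With Seurat clusters 18 of 70 left it and 61 kept their sign. Without dividing cells these were 17 and 71 of 80. With at most 10% mitochondrial UMIs and at least 500 genes, and without the highest Scrublet scores, 0 of 80 left their interval. The median in CD8 T cell-like cells was 0.0733, and in NK cell-like cells 0.0716, when mitochondrial and ribosomal protein genes were left out of the total. The Treg-like median was 0.123 without dividing cells, and the classical monocyte-like median was 0.308 with Seurat clusters. Nonclassical monocyte-like cells had no cluster of their own and so no value under that alternative. Their median was 0.172 after thinning to 2000 UMIs. The count of values at least 1.5-fold higher was 3 of 80. It was 6 without the highest Scrublet scores, 8 after thinning to 2000 UMIs and 5 without dividing cells. The count at least 1.5-fold lower was 0 as reported. Shares of all genes are given only for the main setting. They were between 2.53% and 10.5% upward and between 3.79% and 9.16% downward. In melanoma cell-like cells the median ran from 0.21 to 1.22. TMM scaling moved ratios by up to 0.07 in the larger classes and by up to 0.16 in the thin ones. The causes were not tested. Rare classes and genes such as *Nlrc5* and *Erap1* are limited by counts.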
